A study of Mus musculus with 4 samples.

Results

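Interferon-stimulated genes were followed on the 4 arrays of the series. The 44 genes were listed by symbol, with no threshold on a measured value, and each was read from its brightest single-gene probe set by the mean over the 4 arrays. Of the 44, 42 had such a probe set, out of 18193 genes measured in all. Isg15 shared its probe set with a second gene and Ifi44 was not named in the platform annotation, so neither is counted below. RNA came from mouse peritoneal macrophages drawn into the cavity with thioglycolate, an irritant, and cultured for 18 hours on slides. Cells of wild type and of Dap12-KO mice were each left untreated or given interleukin-4 (IL-4), which makes 4 groups with 1 array each. The study was set up to ask how loss of DAP12, an adaptor that passes signals from partner receptors, alters macrophage expression at rest and in the response to IL-4. The labels give neither strain, age or sex nor the knockout allele, and do not say whether animals were pooled.

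Type I interferons such as the product of Ifnb1 bind the receptor chains Ifnar1 and Ifnar2. The receptor sets off a complex that holds STAT2 and IRF9 and binds interferon-stimulated response elements in promoters, while type II interferon acts at gamma-activated sites. Macrophages keep a low basal level of this programme and raise it strongly on infection. IL-4 acts through STAT6 and drives alternative activation, a state that is classically set against the one induced by interferon gamma.

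All values are log2 probe set values as deposited, and all differences are differences of log2 values. Differences of 2-fold or more, in either direction, were counted. With 1 array per group these differences have no replicate check and no p-value, and nothing in the labels says whether arrays came from different mice. In RNA of a whole culture, fewer cells of a type and less RNA per cell cannot be told apart. All 10 macrophage markers, among them Adgre1, Csf1r and Lyz2, had a mean level at or above 6.39, the median of all deposited values, which serves as the level floor. The targeted gene Tyrobp read 14.39, 14.13, 14.03 and 13.27 (wild type untreated and IL-4, then Dap12-KO untreated and IL-4), so its signal does not bear out the label, and where its probes lie relative to the deletion is not known. Genotype directions below therefore rest on the labels alone. The IL-4 array labelled Dap12-KO had a narrower spread of values, with an interquartile range of 2.54 against 3.19 to 3.25 on the other 3. Among genes with a mean at or above the floor, the median difference was −0.48 in each comparison of 2 arrays that used it. Values after cyclic loess, which removes trends with level between arrays, are given beside these comparisons. The IL-4 comparison in wild type and the untreated genotype comparison do not use that array.

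The interferon-stimulated genes were well expressed in untreated wild type macrophages, with a median level of 9.60 and a range from 5.46 (Ifnb1) to 12.90 (Trim25). Of the 42, 40 had a mean at or above the floor, and Ifnb1 and Mx2 lay below it. For 30 of the 42 genes the wild type untreated array was the highest of the 4. The IL-4 array labelled Dap12-KO was the lowest for 33 genes and the wild type IL-4 array for the other 9. No gene was lowest on an untreated array. These ranks are of deposited values, and the same shares over all genes were not counted. Genes above the floor tended to read lower on the narrower array, at a median of −0.48 in each comparison that used it. With cyclic loess values, 29 of the 42 genes were higher on that array than on the wild type IL-4 array, as were 10364 of all 18193 genes.

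**Figure D1:**
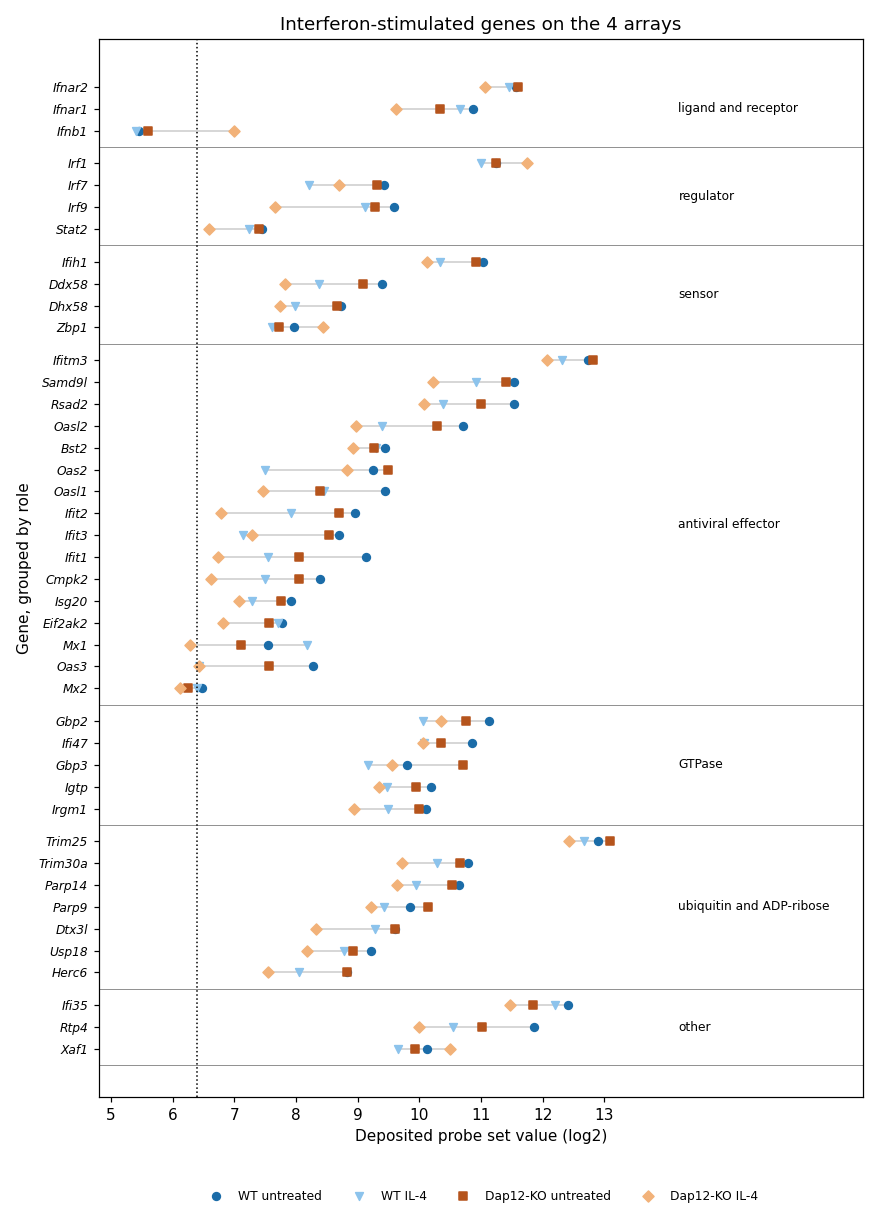
Deposited log2 value (x axis) of each of the 42 measured genes (y axis, grouped by role) on the 4 arrays, 1 symbol per array, with a grey line from the lowest to the highest and a dotted line at the level floor of 6.39. Dark circles, wild type untreated, are the rightmost symbol for 30 genes.

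In wild type macrophages the interferon-stimulated genes were lower with IL-4, most of all the antiviral effectors of the Ifit and Oas families. Of 42 genes, 11 were lower at 2-fold or more, against 0.879% of all genes, and 0 were higher, against 0.868% of all genes. Below 0 were 41 of the 42 (10249 of all 18193 genes), with a median difference of −0.63, where the median of all genes was −0.03. Among genes above the floor, 1.37% were lower at 2-fold. The 11 were Irf7, Ddx58, Ifit1, Ifit2, Ifit3, Oas2, Oas3, Oasl2, Rsad2, Gbp2 and Rtp4. Closest to the 2-fold line were Ddx58 inside it at −1.03 and Oasl1 outside it at −0.99. After cyclic loess 10 genes were lower (0.775% of all genes) and 0 higher (0.929%), with a median of −0.59, and Ddx58, at −0.99, was the one no longer counted.

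Ifnb1 read 5.46 untreated and 5.40 with IL-4 in wild type, below the floor on both arrays. Ifnar1 went from 10.87 to 10.65 and Ifnar2 from 11.56 to 11.46, differences of −0.22 and −0.11. Transcript for both receptor chains was thus bright and little different with IL-4.

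Among the regulators, Irf7, which amplifies the type I interferon response, read 9.42 untreated and 8.21 with IL-4 in wild type, a difference of −1.21. Irf9, the DNA-binding partner of STAT2, went from 9.59 to 9.11. Stat2 went from 7.45 to 7.23 and Irf1, which is induced mainly by interferon gamma, from 11.24 to 10.99. Irf7 was the only one of these 4 past 2-fold, and the role median was −0.37.

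Across the 4 nucleic acid sensors the median was −0.73. Ddx58, which encodes the RNA sensor RIG-I, read 9.40 untreated and 8.37 with IL-4 in wild type. Ifih1, which encodes the long double-stranded RNA sensor MDA5, went from 11.03 to 10.33, and Dhx58, a related helicase without a signalling domain, from 8.73 to 7.99. Zbp1, which senses nucleic acids in the Z form and can start necroptosis, went from 7.96 to 7.61. All 4 were lower, Ddx58 by 2-fold or more.

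Of the 16 antiviral effectors 7 were lower at 2-fold or more, with a role median of −0.93. Oas3, which makes the oligoadenylates that activate RNase L, had the largest measured difference, from 8.27 to 6.43 (−1.84). Its IL-4 value lay at the floor, so the size of this difference is uncertain. Its neighbour and family member Oas2 went from 9.24 to 7.50 (−1.73, or 3.33-fold). Ifit1, whose product binds foreign RNA ends, went from 9.13 to 7.54 (−1.59). Ifit3 went from 8.69 to 7.14 and Ifit2 from 8.96 to 7.91, differences of −1.55 and −1.05. All 3 Ifit genes measured, which lie in 1 cluster on chromosome 19, were past 2-fold. The OAS-like genes Oasl2 and Oasl1 differed by −1.31 (10.71 to 9.40) and −0.99 (9.44 to 8.45). Rsad2, which encodes the radical enzyme viperin, went from 11.53 to 10.38, and the nucleotide kinase gene Cmpk2 beside it from 8.39 to 7.50. The 3 probe sets of Rsad2 gave −1.10, −1.15 and −1.15. At the other end, Bst2 (tetherin), Eif2ak2 (the kinase PKR) and Mx2 differed by −0.14, −0.07 and −0.10, while Ifitm3, Samd9l and Isg20 lay at −0.42, −0.62 and −0.63. The other Eif2ak2 probe sets, also above the floor, gave −0.36 and −0.40. Mx1 was the exception in sign, at 7.54 untreated and 8.17 with IL-4 (0.62). RefSeq annotates both Mx1 and Mx2 as transcribed pseudogenes in this reference genome, and 42 of the 44 listed genes as protein coding.

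The 5 GTPase genes, which act on membranes of intracellular pathogens and respond to interferon gamma, had a narrow range from −1.06 to −0.61. Gbp2 went from 11.12 to 10.05, Ifi47 from 10.85 to 10.07, Igtp from 10.18 to 9.47, Gbp3 from 9.80 to 9.16 and Irgm1 from 10.11 to 9.49. All 5 were lower and Gbp2 alone passed 2-fold.

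Genes of ISG15 and ubiquitin conjugation and of ADP-ribosylation differed less, with 0 of 7 at 2-fold and a median of −0.44. Herc6, a ligase for ISG15 in mouse, went from 8.82 to 8.04, though 1 of its 3 probe sets above the floor pointed the other way at 0.14. Usp18, which removes ISG15 and restrains the receptor, went from 9.22 to 8.78. The ubiquitin ligase genes Trim25 and Trim30a went from 12.90 to 12.66 and from 10.79 to 10.29. Parp14, an ADP-ribosyltransferase known as a cofactor of STAT6, went from 10.64 to 9.95. Parp9 and Dtx3l, whose products form a complex, went from 9.85 to 9.43 and from 9.60 to 9.28. Every one of these 7 lay below 0 by its brightest probe set. In the remaining group Rtp4, a receptor chaperone, differed by −1.31 (11.85 to 10.54), the pro-apoptotic gene Xaf1 by −0.48 (10.13 to 9.65) and Ifi35 by −0.22 (12.41 to 12.19).

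**Figure D2:**
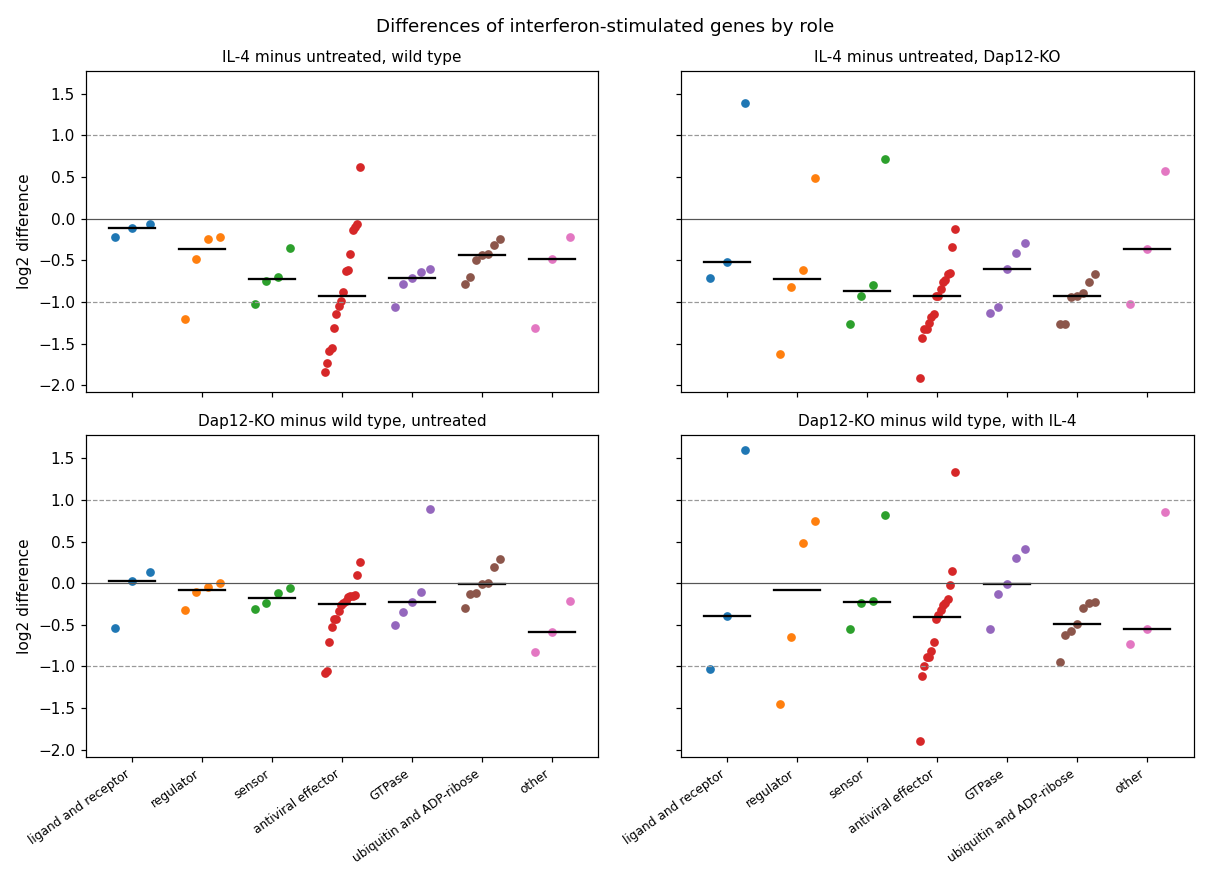
log2 difference (y axis) of each gene by role (x axis) in the 4 comparisons of 2 arrays, with a bar at the role median, a solid line at 0 and dashed lines at 2-fold. In wild type the medians run from −0.11 for ligand and receptor to −0.93 for the antiviral effectors.

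The 6 promoters shown next belong to genes that were lower by 2-fold or more in wild type with IL-4 and hold a match to the interferon-stimulated response element, ordered by the size of the difference. The motif searched was GAAA, any 2 bases and GAAA again, on both strands, in windows of 300 bases from 250 before the annotated start to 50 from it (RefSeq, GRCm38.p6). Sequences run 5′ to 3′ on the gene's strand, with matches in capitals.
Oas3 (chr5:120777610-120777909, - strand): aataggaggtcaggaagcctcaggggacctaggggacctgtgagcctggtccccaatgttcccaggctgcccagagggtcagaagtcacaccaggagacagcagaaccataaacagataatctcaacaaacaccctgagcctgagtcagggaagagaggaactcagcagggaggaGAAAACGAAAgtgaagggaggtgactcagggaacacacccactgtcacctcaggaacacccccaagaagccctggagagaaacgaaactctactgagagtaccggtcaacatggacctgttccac
Ifit1 (chr19:34640639-34640938, + strand): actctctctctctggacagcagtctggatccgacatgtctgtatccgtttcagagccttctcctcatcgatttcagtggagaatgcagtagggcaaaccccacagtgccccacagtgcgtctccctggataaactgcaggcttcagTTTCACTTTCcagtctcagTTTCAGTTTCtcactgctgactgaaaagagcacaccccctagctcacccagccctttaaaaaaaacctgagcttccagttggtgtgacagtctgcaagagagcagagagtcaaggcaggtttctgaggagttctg
Ifit3 (chr19:34583279-34583578, + strand): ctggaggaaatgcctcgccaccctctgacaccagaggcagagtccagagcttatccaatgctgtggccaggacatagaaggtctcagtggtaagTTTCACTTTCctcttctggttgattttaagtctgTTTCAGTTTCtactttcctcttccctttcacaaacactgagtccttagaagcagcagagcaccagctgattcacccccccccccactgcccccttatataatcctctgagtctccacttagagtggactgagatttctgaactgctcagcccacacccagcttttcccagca
Rsad2 (chr12:26456403-26456702, - strand): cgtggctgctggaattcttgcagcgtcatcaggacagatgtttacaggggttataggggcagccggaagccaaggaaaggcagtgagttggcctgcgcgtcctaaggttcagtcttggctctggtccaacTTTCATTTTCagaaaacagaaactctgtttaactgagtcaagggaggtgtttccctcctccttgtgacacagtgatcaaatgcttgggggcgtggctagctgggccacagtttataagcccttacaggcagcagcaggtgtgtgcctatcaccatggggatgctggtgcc
Gbp2 (chr3:142620413-142620712, + strand): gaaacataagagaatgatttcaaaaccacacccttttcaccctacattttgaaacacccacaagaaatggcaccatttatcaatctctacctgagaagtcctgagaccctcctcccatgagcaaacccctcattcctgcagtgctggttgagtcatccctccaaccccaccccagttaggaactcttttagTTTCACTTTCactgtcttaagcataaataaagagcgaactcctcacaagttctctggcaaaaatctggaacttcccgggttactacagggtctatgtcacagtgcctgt
Ddx58 (chr4:40239776-40240075, - strand): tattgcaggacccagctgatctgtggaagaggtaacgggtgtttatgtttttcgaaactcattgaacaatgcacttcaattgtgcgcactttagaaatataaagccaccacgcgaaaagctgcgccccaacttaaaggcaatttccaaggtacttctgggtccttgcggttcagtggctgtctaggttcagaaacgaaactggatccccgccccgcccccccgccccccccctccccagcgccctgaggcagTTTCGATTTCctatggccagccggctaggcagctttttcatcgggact

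Ifit1 and Ifit3 each held 2 matches on the opposite strand, as TTTCACTTTC and TTTCAGTTTC, at −104 to −95 and −85 to −76 in Ifit1 and at −156 to −147 and −122 to −113 in Ifit3, with the first transcribed base as 0. Gbp2 carried the same TTTCACTTTC at −59 to −50. The single matches of Oas3 and Rsad2 lay at −75 to −66 and −120 to −111, and that of Ddx58 just after the start, at 2 to 11. Of the 44 listed genes 35 had a promoter in the table, and 16 of these (45.7%) held a match in at least 1 window, against 1079 of 27025 genes (3.99%) overall. Among the measured genes, 6 of the 15 with a match were lower at 2-fold in wild type, and their median was −0.70. Of the 18 without one 3 were, Ifit2, Oasl2 and Irf7, and the median was −0.55. Another 9 measured genes had no promoter to search, and 2 of them, Oas2 and Rtp4, were lower at 2-fold in wild type. The gamma-activated site TTCNNNGAA was present in 10 of the 35 genes (28.6%), against 9.55% of all genes. The wider spacing that STAT6 prefers, TTC and GAA with any 4 bases between them, was present in 6 of 35 (17.1%), against 8.01%. The first of these overlapped a response element match in 2 promoters, those of Bst2 and Ifitm3, and the second in 0. A match is a description of the letters in this window, not a bound site.

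On the arrays labelled Dap12-KO the interferon-stimulated genes were also mostly lower with IL-4, but so were many other genes there. Of 42 genes 14 were lower at 2-fold or more, where 12.4% of all genes and 19.5% of those above the floor were, and 1 was higher, where 5.9% of all genes were. The median was −0.83, against −0.05 for all genes and −0.48 for genes above the floor. After cyclic loess 2 genes were lower (4.36% of all genes) and 4 higher (6.94%), with a median of −0.30 against 0.05 for all genes. Below 0 were then 31 of 42, and 8298 of all 18193 genes. The share lower at 2-fold was then near that of all genes, so on these arrays the sign of the median was less dependent on scaling than the counts were.

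Lower at 2-fold in both genotypes as deposited were 7 genes, Ddx58, Ifit1, Ifit2, Ifit3, Oas3, Oasl2 and Rtp4, against 0.616% of all genes. Ifit2 was the one that stayed past 2-fold in both after cyclic loess (0.396% of all genes), where it was just at the line in wild type and at −1.36 in Dap12-KO. It read 8.70 untreated and 6.79 with IL-4 in Dap12-KO, the largest difference of the group there at −1.91. Ifit1 went from 8.05 to 6.73 and Ifit3 from 8.54 to 7.29, or −0.83 and −0.75 after cyclic loess. Oas3 went from 7.56 to 6.42, Oasl2 from 10.29 to 8.97, Rtp4 from 11.01 to 9.99 and Ddx58 from 9.09 to 7.82. After cyclic loess these 4 lay at −0.92, −0.65, −0.41 and −0.62. All 7 thus kept a negative difference in both genotypes under both scalings.

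Another 7 genes were past 2-fold in Dap12-KO and not in wild type, which was not tested as a difference. Of all genes 11.8% were, so this count lay near the background. Irf9 went from 9.28 to 7.66 (−1.62, or −0.96 after cyclic loess). Cmpk2 went from 8.05 to 6.62 (−1.43, or −1.01). Dtx3l, from 9.60 to 8.33, and Herc6, from 8.82 to 7.55, differed by −1.27 each, and the Herc6 probe sets again disagreed, from −1.27 to 0.40. Samd9l (11.40 to 10.22), Gbp3 (10.70 to 9.56) and Irgm1 (down to 8.94) completed them, at −1.18, −1.13 and −1.06. In cyclic loess values Cmpk2 alone of these 7 was past 2-fold, against 3.96% of all genes.

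A few genes were higher with IL-4 in Dap12-KO. Ifnb1 read 5.60 untreated and 7.0 with IL-4, so its untreated level lay below the floor and the size of its difference (1.39, or 1.14 after cyclic loess) rests on a background reading. It has 1 probe set. Zbp1 went from 7.72 to 8.43, Xaf1 from 9.92 to 10.50 and Irf1 from 11.24 to 11.74. These 3 differences of 0.72, 0.57 and 0.49 became 1.22, 1.23 and 1.08 after cyclic loess, past 2-fold. The second Zbp1 probe set also lay above 0, at 0.36, and Irf1 has 1 probe set. In wild type all 4 genes lay below 0, and Mx1 had the opposite pattern, at 0.62 in wild type and −0.84 in Dap12-KO (7.11 to 6.28). None of the 42 genes was past 2-fold in opposite directions in the genotypes, against 0.0165% of all genes.

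**Figure D3:**
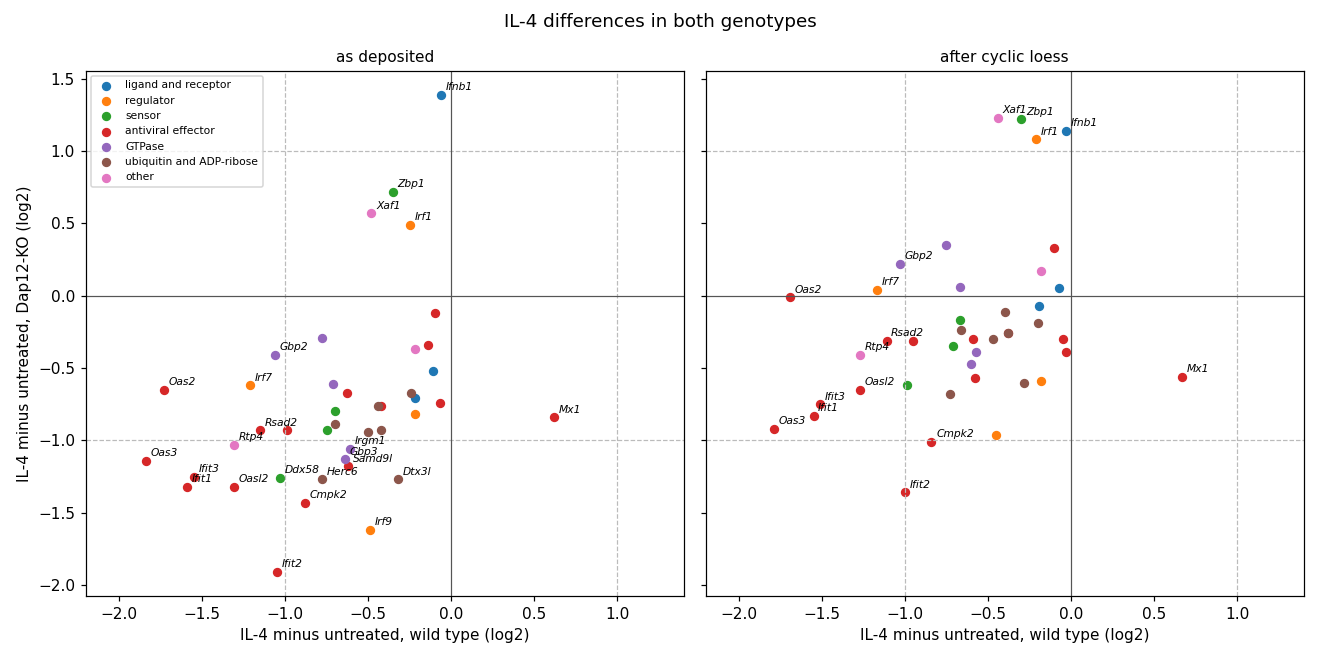
IL-4 minus untreated in wild type (x axis, log2) against the same in Dap12-KO (y axis, log2), 1 point per gene coloured by role, as deposited (left) and after cyclic loess (right), with dashed lines at 2-fold. The points lie at nearly the same place along the x axis in both panels and, other than Ifnb1 and Mx2, further up along the y axis after cyclic loess, where the median in Dap12-KO goes from −0.83 to −0.30.

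The remaining genes had smaller differences as deposited. Irf7 went from 9.31 to 8.69 and Stat2 from 7.40 to 6.58 in Dap12-KO, or 0.04 and −0.59 after cyclic loess. Of the sensors, Ifih1 went from 10.91 to 10.12 and Dhx58 from 8.67 to 7.74, and both stayed below 0 after cyclic loess, at −0.17 and −0.35. Oas2, at 9.49 and 8.83, differed by −0.65 as deposited and by −0.01 after cyclic loess, in contrast to −1.69 in wild type. Oasl1 went from 8.39 to 7.47 (−0.93, or −0.31). Rsad2 went down to 10.07 (−0.93, or −0.31), and its 3 probe sets ranged from −1.71 to −0.49. Among the GTPases Gbp2 went from 10.76 to 10.35, Ifi47 from 10.35 to 10.06 and Igtp from 9.95 to 9.34, and these 3 lay above 0 after cyclic loess. The conjugation genes Usp18 (8.93 to 8.17), Trim30a (10.66 to 9.72), Trim25 (13.09 to 12.42), Parp9 (10.14 to 9.21) and Parp14 (10.53 to 9.64) lay below 0 under both scalings. Ifi35 went from 11.84 to 11.47 (−0.37, or 0.17 after cyclic loess).

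By role, the effector median in Dap12-KO with IL-4 was −0.93 as deposited and −0.48 after cyclic loess, with 16 and 15 of 16 genes below 0. The GTPase genes had a median of −0.61 as deposited and 0.06 after cyclic loess, so their direction turned with the scaling. Sensors lay at −0.86 and −0.26, regulators at −0.72 and −0.28, and the conjugation genes at −0.93 and −0.26. Transcripts for Ifnar1 (10.33 to 9.62) and Ifnar2 (11.59 to 11.07) lay at −0.71 and −0.52 as deposited and at −0.07 and 0.05 after cyclic loess.

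A limma fit (lmFit and eBayes, all 18193 genes, Benjamini-Hochberg adjustment) took the 2 genotypes as repeats of the IL-4 difference, blocked on genotype, with only 1 residual degree of freedom. The spread behind its p-values is that between the genotypes in the IL-4 difference, not a spread of replicates. For each gene it is drawn toward a prior pooled over all genes, with 5.32 degrees of freedom against 1. It takes in any genotype effect on that difference and the narrower array, and may be technical in part. With limma 0 of the 42 interferon-stimulated genes rose and 0 fell at an adjusted p under 0.05, as did 0 of all genes, so 0% was called in each direction. The smallest adjusted p among the 42 was 0.458, for Ifit1 at −1.45 with a standard error of 0.301. At an unadjusted p under 0.05 there were 20 of the 42, all lower, against 5.29% of all genes. With limma on cyclic loess values there were 12, all lower, against 1080 of all 18193 genes. On quantile normalized values there were 14, all lower, against 783. Restricted to the 11264 genes with a mean at or above the floor, limma called 1.31% as falling and 0.613% as rising, with 10.6% at an unadjusted p under 0.05, and Oas3 (−1.49, adjusted p = 0.0239), Ifit2 (−1.48, adjusted p = 0.026), Ifit1 (−1.45, adjusted p = 0.0303) and Ifit3 (−1.40, adjusted p = 0.0438) fell. Every gene had the same standard error in that fit, 0.418, so its calls follow the size of the mean difference alone. It used deposited values, where genes above the floor had a median of −0.48 with IL-4 in Dap12-KO. In the cyclic loess fit over all genes, the estimates for Oas3, Ifit2, Ifit1 and Ifit3 were −1.36, −1.18, −1.19 and −1.13.

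Without treatment, the array labelled Dap12-KO differed little from wild type in most interferon-stimulated genes. Of 42 genes 2 were lower at 2-fold or more, Ifit1 and Oasl1, against 2.4% of all genes, and 0 were higher, against 2.19%. Below 0 were 33 of 42 (8824 of all 18193 genes), with a median of −0.19 where that of all genes was 0.01. Ifit1 read 9.13 in wild type and 8.05 in Dap12-KO (−1.08), and Oasl1, a negative regulator of Irf7 translation, 9.44 and 8.39 (−1.05). Rtp4 (−0.83), Oas3 (−0.71), Ifi35 (−0.58), Ifnar1 (−0.54) and Rsad2 (−0.53) followed below 2-fold, and the 3 Ifi35 probe sets ran from −0.97 to −0.58. Gbp3 had the largest positive difference, at 9.80 against 10.70 (0.89). After cyclic loess Ifit1 (−1.01) was the 1 gene lower, against 2.02% of all genes, and 0 were higher, against 2.56%, with a median of −0.10 against 0.05.

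The regulators were close to level between the untreated genotypes, with Irf1 at 11.24 on both arrays, Irf7 at 9.42 and 9.31, Stat2 at 7.45 and 7.40 and Irf9 at 9.59 and 9.28. The sensors were as close, from −0.31 (Ddx58) to −0.06 (Dhx58). This comparison and the IL-4 comparison in wild type share the wild type untreated array, so a high reading there lowers both differences. The values of Ifit1 were −1.59 with IL-4 and −1.08 with genotype, those of Oasl1 −0.99 and −1.05, and those of Oas2 −1.73 and 0.25.

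With IL-4, 4 of the 42 genes were lower on the array labelled Dap12-KO than in wild type, where 12.5% of all genes were, and 2 were higher, where 8.44% were. Neither count stood above that background. The median of −0.35 turned to 0.23 after cyclic loess, with 1 gene lower (4.04% of all genes) and 7 higher (9.13%), so no direction between genotypes holds for the group under both scalings. Mx1, Oas2 and Ifnb1 were past 2-fold under both scalings, though Mx1 and Ifnb1 each rest on a reading below the floor. Mx1 read 8.17 in wild type with IL-4 and 6.28 in Dap12-KO with IL-4, a difference of −1.89 as deposited and −1.61 after cyclic loess. Oas2 read 7.50 and 8.83 (1.33, or 2.03), and Ifnb1 5.40 and 7.0 (1.60, or 1.32). Irf9 (9.11 and 7.66), Ifit2 (7.91 and 6.79) and Ifnar1 (10.65 and 9.62) were lower at −1.45, −1.12 and −1.03 as deposited and at −0.74, −0.54 and −0.33 after cyclic loess. Higher at 2-fold after cyclic loess only were Irf1, Irf7, Zbp1, Gbp3 and Xaf1, with 0.75, 0.48, 0.82, 0.41 and 0.85 as deposited.

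The IL-4 difference in Dap12-KO minus that in wild type had a median of −0.19 over the 42 genes as deposited and 0.36 after cyclic loess. As deposited 4 genes were above 2-fold, against 6.21% of all genes, and 2 below it, against 10.5%. Above it were Ifnb1 (1.46), Oas2 (1.08), Zbp1 (1.06) and Xaf1 (1.06), and below it Mx1 (−1.46) and Irf9 (−1.13). After cyclic loess 8 were above it (6.37% of all genes) and Mx1 alone below it (4.18%). With 1 array per combination this interaction could not be tested.

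Other genes of the pathway did not share one direction. Of 34 further receptors, adaptors and factors 28 were measured. Their median with IL-4 in wild type was −0.02, and 3 were higher (0.868% of all genes) and 1 lower (0.879%) at 2-fold. Those were Irf4, a factor that IL-4 induces (10.66 to 12.37), the feedback inhibitors Socs1 (6.16 to 7.74, from below the floor) and Socs3 (9.37 to 10.55), and the kinase gene Ikbke (11.43 to 10.42), which activates IRF factors. In Dap12-KO, Irf4 (8.86 to 11.49) and Socs1 (6.46 to 8.68) were higher again, with Tlr9 (7.67 to 9.23), against 5.9% of all genes. Irf8 (11.76 to 10.11) was among 4 lower, against 12.4%. After cyclic loess 4 were higher there (6.94% of all genes) and 1 lower (4.36%). The gene for interferon gamma, Ifng, read 5.03 to 5.12 on the 4 arrays, below the floor.

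A wider list of 65 other interferon-stimulated genes, of which 57 were measured, lay between the genes described here and all genes in the wild type comparison. Here 51 of 57 were below 0 in the wild type comparison, at a median of −0.33, where 10249 of all 18193 genes were below 0. Lower at 2-fold were 3, against 0.879% of all genes. These were Slfn5 (10.14 to 8.82), Ms4a4c (8.60 to 7.52) and Gbp6 (8.02 to 6.95). In Dap12-KO 19 were lower (12.4% of all genes) and 2 higher (5.9%) as deposited. After cyclic loess 9 were lower (4.36% of all genes) and 3 higher (6.94%), where 2 of the 42 genes were lower. The medians of −0.73 as deposited and −0.31 after cyclic loess were close to the −0.83 and −0.30 of the 42 genes. Slfn5 was lower there too (10.26 to 8.46), and Ch25h, an oxysterol enzyme, was higher (6.42 to 10.77). Genes of MHC class I processing, which interferons also induce, lay at a median of −0.17 for IL-4 in wild type and −0.44 in Dap12-KO, and 0 of 11 reached 2-fold either way in both. After cyclic loess the median in Dap12-KO was 0.08, and Psmb10 was past 2-fold, higher with IL-4.

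**Figure D4:**
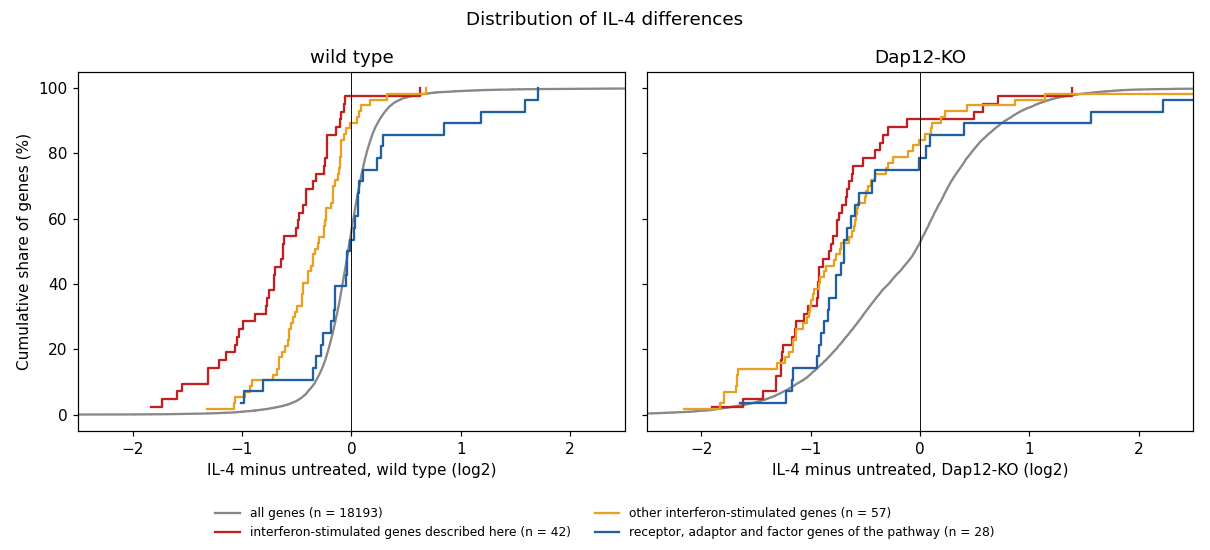
Cumulative share of genes (y axis, %) by IL-4 minus untreated (x axis, log2) in wild type (left) and Dap12-KO (right), as deposited, for the 42 genes, 57 other interferon-stimulated genes, 28 receptor, adaptor and factor genes of the pathway and all 18193 genes; values beyond 2.5 either way are not drawn. In wild type the curve of the 42 genes lies left of that of all genes, with medians of −0.63 and −0.03. In Dap12-KO the pathway genes lie left of all genes as well, at −0.69 and −0.05, where genes above the floor had a median of −0.48. With cyclic loess values, not drawn, the medians of the pathway genes and all genes there were −0.08 and 0.05.

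Markers of other cell types were read on the same arrays, as the log2 of their summed linear signal. Plasmacytoid dendritic cells are strong producers of type I interferon, and 6 of their 7 measured markers had a mean at or above the floor. Of these Pacsin1 read 6.36 and 5.99 in wild type (untreated and IL-4), below the floor, and 6.52 and 7.73 in Dap12-KO. The sum of the 7 ran from 10.49 to 10.93 over the 4 arrays. Tcf4 was the brightest of them on all but the Dap12-KO IL-4 array, at 8.97, 9.23 and 9.89, with 8.85 there. The defining marker Siglech ran from 6.42 to 6.77, close to the floor. The single markers were less steady than this sum. With IL-4 in Dap12-KO 3 of the 7 were higher at 2-fold (5.9% of all genes) and 3 lower (12.4%) as deposited. With cyclic loess 3 were higher (6.94%) and 1 lower (4.36%). B cell markers (4 of 5 above the floor) summed to 10.71, 10.97, 11.75 and 11.25 in the order used above, dendritic cell markers (6 of 7) to 13.18, 13.33, 11.53 and 12.83, and neutrophil markers (4 of 7) to 11.13, 11.41, 11.75 and 11.77. Itgax, which macrophages can also express, set most of the dendritic cell sum (13.01, 13.02, 11.08 and 12.34). Csf3r set most of the neutrophil sum on the last 3 arrays (9.68, 10.84, 11.20 and 11.33), while S100a8 read 10.09, 9.20, 9.52 and 7.86. Elane, among the 4 neutrophil markers counted, lay above the floor on the last array alone (6.18, 6.08, 6.38 and 7.27). Sums of T and NK cell markers (3 of 7) ran from 8.93 to 9.70, of mast cells (3 of 6) from 8.97 to 10.08, of eosinophils (1 of 5) from 8.19 to 8.56, and of mesothelium and fibroblasts (2 of 8) from 8.97 to 9.49. The macrophage sum was 16.69 and 16.47 in wild type without and with IL-4, and 16.80 and 16.23 in Dap12-KO. The part of other cell types in the results above was not tested.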

How the data were processed

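Expression was measured in total RNA on 4 one-colour Affymetrix arrays, 1 per group, grouped by title. The labelling took 2 cycles of amplification, per the labels' protocols, and such amplification favours the 3′ part of transcripts. The authors deposited log2 values per probe set, and the submitters' processing notes name RMA, without a version. No detection call or depth stands behind a value, and precision is limited by the small number of arrays.

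Of 45101 probe sets, 34945 named 1 gene in GEO's platform annotation, 932 several and 9160 none, and 64 were controls; 34741 were matched by Entrez identifier to RefSeq GRCm38.p6. The brightest single-gene probe set stood for each of 18193 genes. No level filter entered the counts, since a floor on the highest value favours genes that differ. Cyclic loess (3 iterations), quantile normalization and the fit used limma 3.58.1 in R 4.3.3, the fit checked on simulated data; other steps used Python 3.11.15, numpy 2.4.6, pandas 2.3.3 and matplotlib 3.10.9. Probe sets ending in x_at or s_at, used for Gbp2, Trim25 and Ifi35, can read related transcripts.

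The genes, lists and rules were chosen with earlier results of these data known. All listed genes may be named. Values on all arrays are given for ligand, receptors, regulators and sensors, and in other roles for genes at 2-fold in both IL-4 comparisons or among the 3 largest of their role in any comparison. From the 2 lists of other pathway and other interferon-stimulated genes, up to 4 per comparison may be named. Ifng and the markers Siglech, Adgre1, Csf1r and Lyz2 were named after their values were seen. So were Psmb10, Itgax, Csf3r, S100a8, Pacsin1, Tcf4 and Elane. The alternatives were cyclic loess, quantile normalization, the median over probe sets, a floor on the mean level, a 3-fold threshold and, for limma, an intensity trend and no genotype term.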

Additional observations from a re-analysis of the deposited data

How the results depend on the processing

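In wild type with IL-4 the counts of interferon-stimulated genes were within 1.5 times under both scalings, the median over probe sets and the mean level floor, and 3 genes were lower at a 3-fold threshold. Shares of all genes were not counted under quantile normalization, the median over probe sets or the 3-fold threshold, so those counts have no background here. With the mean level floor, 5.9% of genes were higher with IL-4 in Dap12-KO and 7.21% between genotypes with IL-4. In Dap12-KO with IL-4 the count lower, 14, became 2 with cyclic loess, 5 with quantile normalization and 2 at 3-fold; the count higher, 1, became 4 with cyclic loess, 3 with quantile normalization, 0 with the mean level floor and 0 at 3-fold. For the untreated genotypes the 2 genes lower became 1 with cyclic loess, 0 with quantile normalization and 0 at 3-fold. Between genotypes with IL-4 the 2 higher became 7 with cyclic loess, 7 with quantile normalization, 1 with the mean level floor and 1 at 3-fold, and the 4 lower became 1, 2 with quantile normalization and 1 at 3-fold. The median of that comparison turned from −0.35 to 0.23 with cyclic loess and 0.14 with quantile normalization. The median difference of the IL-4 responses turned from −0.19 to 0.36 and 0.18 with these scalings. Both scalings act mainly on the narrower array labelled Dap12-KO with IL-4; why it is narrower was not tested. In limma 0 of the 42 genes fell with either scaling, an intensity trend, no genotype term or the median over probe sets. With the mean level floor 4 fell, where 148 of 11264 genes did. Of all 18193 genes, the intensity trend called 65 as falling and 61 as rising, and the median over probe sets 0 and 3. Either scaling and the fit without a genotype term called 0 of all genes. No paired analysis was possible because the labels give no replicate numbers; the genotype block of the limma fit is the nearest to one. Of 168 values of single genes, 114 kept their sign and side of 2-fold with cyclic loess, 126 with quantile normalization and 148 with the median over probe sets, and 0 of the values past 2-fold changed sign.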

Other observations

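Of the 42 listed genes that RefSeq annotates as protein coding, 18 lie in 8 groups of neighbours, each no more than 10 protein-coding genes from the next. Mx1 and Mx2, annotated as pseudogenes, were left out of this search. Rsad2 and Cmpk2 adjoin on chromosome 12, and with IL-4 they differed by −1.15 and −0.88 in wild type and by −0.93 and −1.43 in Dap12-KO. Parp14, Dtx3l and Parp9 adjoin on chromosome 16, with −0.70, −0.32 and −0.42 in wild type and −0.89, −1.27 and −0.93 in Dap12-KO. Oas2 and Oas3 adjoin on chromosome 5, and both were lower with IL-4 in wild type (−1.73 and −1.84), while in Dap12-KO with IL-4 Oas2 read 8.83 and Oas3 6.42, at the floor.

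Probe sets of 1 gene can disagree. Of the 42 genes 12 had 2 or more probe sets with a mean at or above the floor. Their signs differed within a gene for 1 of the 12 in wild type with IL-4 and 1 in Dap12-KO with IL-4, which was Herc6 in both, for 5 between the untreated genotypes and for 3 between genotypes with IL-4. The Ifnar2 probe sets gave −0.52, −1.24 and −1.62 in Dap12-KO with IL-4, where the brightest, used above, gave the smallest difference. These are deposited values that use the narrower array. Only the brightest was read after cyclic loess, where it lay at 0.05.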
